A study of Ovis aries with 24 samples.

Results

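Translation initiation and elongation factors are the soluble proteins that load ribosomes onto mRNA and carry them along it. The genes described here are the 50 symbols beginning with EIF1 to EIF6 or with EEF1 or EEF2 among the 9156 single gene symbols that the array's annotation gives. They were found by symbol alone, and each is represented by its probe set of highest mean signal, while EIF4E3 is given on each of its probe sets. The 50 genes have 73 of the 24128 probe sets on the array, and RefSeq's table of sheep genes lists 49 of the symbols. EIF3CL is the one it does not list, and it resembles EIF3C so closely in human that the signal of its probe set cannot be assigned to one of them with certainty.

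Initiation begins when EIF2 brings the initiator tRNA to the small ribosomal subunit, while EIF1 and EIF1A hold the subunit open for scanning and EIF3 bridges it to the mRNA. The EIF4F group recruits the mRNA itself: EIF4E binds the 5′ cap, EIF4G is the scaffold, and EIF4A is a helicase that unwinds the leader. In elongation, EEF1A delivers aminoacyl-tRNA, the EEF1B complex recharges it with GTP, and EEF2 moves the ribosome along. Skeletal muscle is known for controlling this machinery when it grows, mainly through EIF4E, its inhibitor EIF4EBP1, and the phosphorylation of EIF2 and EEF2.

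The samples are skeletal muscle of Dorset, Suffolk and Rambouillet cross-bred sheep, hybridised to a bovine Affymetrix GeneChip. The callipyge mutation enlarges muscle after birth in lambs that inherit it from the father alone. The comparisons are between genotypes, ages and muscles, and only some of them include enlarged muscle. The arrays of longissimus dorsi (LD), from the back, cover 4 genotypes: CN lambs, with the allele from the father, show the trait, while CC homozygotes, NC lambs with the allele from the mother, and NN wild types do not. Each was taken at T0, within 5 days of birth, and at T12, at 11 to 12 weeks of age. Supraspinatus (SS), from the shoulder, has arrays of CN and NN at T12, and the hind-limb muscles SM and ST have arrays of NN at T12. Whether SS of CN lambs was enlarged is not known from the arrays. SM is named in more than one way by the labels and is given by its code. The word birth also stands in some labels of T12 arrays, which are taken here as T12.

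Each of the 12 groups has 2 arrays that the labels call technical replicates. The protocol names 8 male lambs, while the fits treat the 12 groups as independent. How many lambs stand behind an array, and whether groups such as the muscles at T12 share lambs, is not known here. Variation from lamb to lamb therefore cannot be told apart from an effect of genotype, age or muscle, and p-values measure spread between groups that may differ for either reason. Except for CC and NC against NN, that spread is the one among CC, NC and NN in LD at each age. Each CN, SS, SM or ST group stands alone in the fit, so SEs and p-values hold no spread of these groups. Signals are MAS5 values scaled by the authors to a 2% trimmed mean near 199.9 on every array. A group enters the tests as 1 value, the mean of the log2 signals of its arrays, and changes are log2 differences with the standard error (SE) of a limma fit. A probe set is called at a Benjamini-Hochberg adjusted p under 0.05 over 15654 tested probe sets. Array medians lay between 47.4 and 59.7, and signals below them may not be above background. In bulk muscle, a lower signal from fewer cells of a type and from less RNA per cell cannot be told apart. Of 12 listed markers of skeletal muscle 11 passed the filter on low signal, and their summed signal was 183443 to 294856 over the arrays.

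Of the 50 genes, 49 entered the fits. EEF1AKMT3, an enzyme that methylates EEF1A, did not pass the filter on low signal, with 2.4 to 72.7 over the 24 arrays. EIF4E entered with its next brightest probe set, since its brightest is a control probe set of the array. Of the 49, 44 lay above the filter in each of the 12 groups and 5 in some groups only. EIF2A, EIF2AK1, EIF2AK2, EIF2AK3 and EEF2KMT are these 5, and the lowest group signal of each was under 47.4. EEF2KMT, a methyltransferase that modifies EEF2, reached the filter in 2 groups, so its range of 4.59 log2 units rests on very low signals.

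The range over the 12 group means had a median of 0.69 log2 units over the 49 genes. The technical SD between the arrays of a group had a median of 0.17, which cannot be set directly against a range. The SD between groups was above the technical SD in 33 of the 49. EIF1, which keeps the scanning ribosome from starting at wrong codons, had the narrowest range, 0.30, with group signals of 16046 to 19735. By complex, the median range was 0.54 for the 9 start codon and ternary complex factors, 0.62 for the 12 EIF3 subunits and 0.79 for the 11 members of the EIF4 group. It was 0.90 for the 6 fitted EEF1 genes, and 1.08 for the 7 EIF2 kinases and EIF2B subunits, of which the kinases are among the dim genes above. EIF4E3, a cap-binding relative of EIF4E, had a range of 2.48, and LD of CN lambs at T0 was its highest group.

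In newborn LD, EIF4E3 was the one translation factor called between CN and the other genotypes. On its brighter probe set the CN arrays at T0 had signals of 1683.4 and 1206. The CC arrays had 506 and 404.5, the NC arrays 245 and 264.4, and the NN arrays 456 and 252.2. Both CN arrays lay above each of the 6 arrays of the other genotypes, with no overlap. On its dimmer probe set the CN arrays had 931.5 and 692, the CC arrays 262.2 and 184.1, the NC arrays 214.4 and 181.9, and the NN arrays 176.6 and 179.3. The groups did not overlap there either.

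Against the mean of the other genotypes at T0, EIF4E3 rose in CN by 2.07 ± 0.28 (SE, limma adjusted p = 0.0364), a 4.20-fold difference, on the first probe set. On the second it rose by 2.02 ± 0.32 (limma adjusted p = 0.0469), or 4.06-fold. Taken genotype by genotype, CN exceeded CC by 1.66, NC by 2.48 and NN by 2.07 on the first probe set. The second gave 1.87, 2.02 and 2.17 in the same order.

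The calls sit close to the threshold. In 24 fits that each left out 1 array, the first probe set passed in 17 and the second in 13, with changes of 1.83 to 2.31 and 1.81 to 2.24. The first lost its call without either array of LD CC T12, and without replicate 2 of LD CC T0 (adjusted p = 0.0567), LD NC T0, LD NN T0 or LD NC T12 (adjusted p = 0.094), or replicate 1 of LD NN T12. The second also lost it without replicate 1 of LD CC T0, LD NC T0 or LD NN T0 or replicate 2 of LD NN T12, and with quantile normalization (adjusted p = 0.0526). Without an intensity trend in the fit, neither passed (limma adjusted p = 0.248 for each) and 0 probe sets of the array were called.

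**Figure D1:**
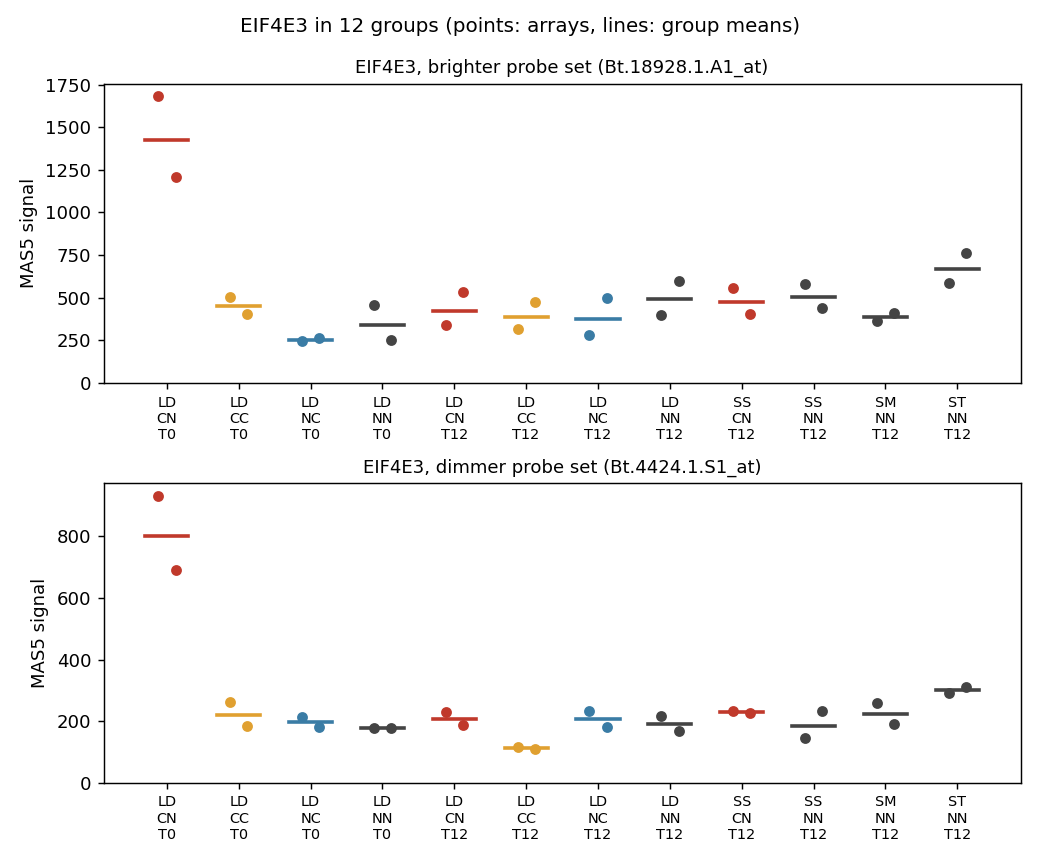
EIF4E3 MAS5 signal (linear axis from 0) on its brighter probe set (top) and dimmer probe set (bottom) in the 12 groups, with 1 point per array and a line at the group mean of log2 signal. The LD CN arrays at T0, at 1683.4 and 1206 in the top panel and at 931.5 and 692 in the bottom one, lie above every other array.

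Over all 12 groups LD of CN at T0 stood first on both probe sets, and ST of NN lambs at T12 second, with means of 670.4 and 301.8. The ST arrays had 587.5 and 765 on the first probe set and 311 and 292.8 on the second. Below ST, neighbours in the order were not separated on the first probe set, where group means were 505.5 in SS of NN to 254.5 in LD of NC at T0. The arrays of each group overlapped with those of the next one in the order. On the second probe set LD of CC at T12 was lowest, with arrays of 109.6 and 116.9 under every other group. It was mid-range on the first probe set, at 388.2. Across the 12 group means the probe sets had a Pearson r of 0.84, and of 0.44 over the 11 groups without LD CN T0, as a description of points that share arrays.

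At T12 the EIF4E3 arrays of CN overlapped with those of the other genotypes in LD. On the first probe set the CN arrays had 338.2 and 531.2, inside the 279.4 to 600.8 of the other genotypes. The CN change at that age was 0.03 ± 0.28 on it and 0.33 ± 0.32 on the second probe set (limma adjusted p = 0.987 and 0.808). The difference between the CN effects at T12 and at T0 was −2.04 ± 0.40 (limma adjusted p = 0.203) and −1.69 ± 0.45 (adjusted p = 0.304), so the change with age was not called. It was called on both with unaveraged arrays in a replicate block (limma adjusted p = 0.0148 and 0.0201), which counts the technical arrays as separate samples. On the first probe set it was also called without LD CN T12 replicate 2. Of the 49 factors 0 were called for this difference and 2 had an unadjusted p under 0.05, against 0% and 8.89% of all probe sets.

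The genes whose group means followed EIF4E3 most closely, among 2833 compared symbols, were CFAP298 (r = 0.85 over 12 groups), OSBPL11 (0.83), RANBP10 (0.83), ATP6V1G1 (0.80) and MYLIP (0.80). OSBPL11 is a lipid transfer protein, ATP6V1G1 a subunit of the vacuolar proton pump, and MYLIP a ubiquitin ligase of the LDL receptor. Over the 11 groups without LD of CN at T0, r was 0.62 for CFAP298, 0.86 for OSBPL11 and 0.54 to 0.56 for the other three. The choice by correlation favours genes that are bright in LD of CN at T0, so their levels there, such as 1138 for OSBPL11 and 1990 for ATP6V1G1, and their T0 changes of 1.14 to 1.61 are a description of how they were chosen.

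No other translation factor was called in newborn CN muscle. The call of EIF4E3 is 1 of 49 fitted factors, where 0.172% of all tested probe sets were called in this comparison and 0.128% were called higher. At an unadjusted p under 0.05 there were 7 factors, 6 of them with positive changes, against 11.7% of all probe sets. Positive changes were seen in 32 of the 49, with a median of 0.07, while 7512 of all 15654 tested probe sets were positive, with a median of −0.02.

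EIF3I, a WD-repeat subunit of EIF3, had 4557.2 and 4637.5 on the CN arrays at T0. The other genotypes had 2396.7 to 3296.2 with a median of 2585, and the groups did not overlap. Its change was 0.76 ± 0.16 and was not called (limma adjusted p = 0.0779). It passed with CC left out of the comparator (0.88, limma adjusted p = 0.0199). Of the 24 fits without 1 array it passed in 2, those without LD CN T0 replicate 1 or 2. Its change over the 24 was 0.74 to 0.78. It also passed in the replicate block (limma adjusted p = 3.43e-04), which counts the technical arrays as separate samples. EIF3J, a loosely bound EIF3 subunit that acts at the decoding site, had 1097.3 and 944.9 in CN against 492.3 to 867.4, with a change of 0.65 ± 0.24 (adjusted p = 0.308). Of the 12 EIF3 subunits 10 had positive changes, with a median of 0.18, and 0 were called. With quantile normalization 9 were positive, with a median of 0.24.

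In the EIF4 group the scaffold EIF4G3 had 1120.4 and 1046.4 on the CN arrays, against 598.6 to 743.8 in the other genotypes. That gave 0.70 ± 0.17 (limma adjusted p = 0.118), and its second probe set gave 0.73 ± 0.19 (adjusted p = 0.146). EIF4B, which stimulates the helicase, had 2824.8 and 2784.6 in CN against 1832.6 to 2594.9, a change of 0.40 ± 0.19 (adjusted p = 0.439). The cap-binding proteins EIF4E and EIF4E2 were at 0.14 and 0.05, the inhibitor EIF4EBP1 at 0.15 and the main scaffold EIF4G1 at 0.04. The helicases EIF4A1, EIF4A2 and EIF4A3 were at −0.21, −0.13 and −0.04.

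Of the elongation factors 0 were called at T0. EEF1D, an exchange subunit for EEF1A, had 1950 and 2308.2 in CN, below the 2697.6 to 3925.1 of the other genotypes. Its change of −0.67 ± 0.18 was not called (limma adjusted p = 0.161). CC lay lowest of the other genotypes, at 2697.6 and 2857.3. EEF1G, another member of the EEF1B complex, was at −0.22 ± 0.12, EEF1A1 at −0.03 and EEF2 at 0.07. The 6 fitted EEF1 genes had a median of −0.06, which became 0.12 with quantile normalization, so their direction depends on the scaling.

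Among start codon factors EIF1B, a close relative of EIF1, had 839.4 and 625.8 in CN against 461 to 570.9, a change of 0.48 ± 0.16 (limma adjusted p = 0.244). The other 8 lay between −0.20 and 0.23, with EIF2S1, the EIF2 subunit that the kinases phosphorylate, at 0.23. Of the EIF2B subunits, which recharge EIF2 with GTP, EIF2B4 was at 0.45 ± 0.18 (adjusted p = 0.374).

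**Figure D2:**
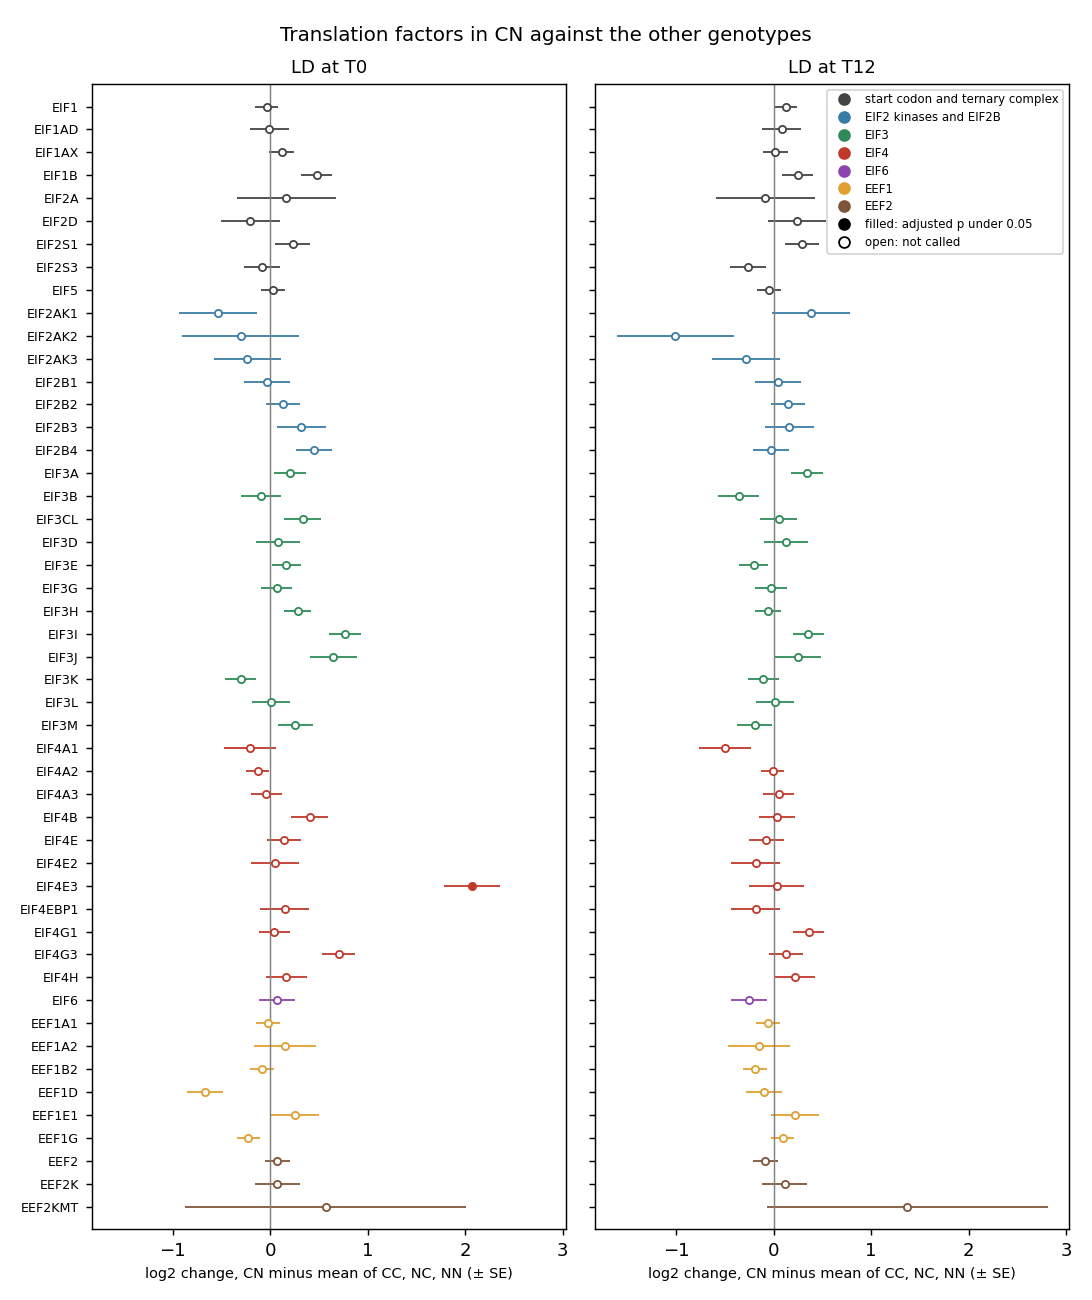
Log2 change of CN against the mean of CC, NC and NN in LD at T0 (left) and T12 (right) for the 49 fitted translation factors, coloured by complex, with bars of 1 SE. EIF4E3 at T0, at 2.07, is the single filled (called) point, and EEF2KMT has the widest bars.

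The regulators around the factors, 39 tested genes of a list of 56 symbols, gave 0 calls at T0, and 5 had an unadjusted p under 0.05. Of all tested probe sets 0.172% were called and 11.7% had an unadjusted p under 0.05, so the regulators named next are a description. DDIT4, an inhibitor of the growth kinase mTORC1, was at 0.85 ± 0.19 (limma adjusted p = 0.0932), and the ribosome rescue partners PELO and HBS1L at 0.81 ± 0.20 and 0.82 ± 0.23. PABPC4, a poly(A)-binding protein, was at −0.47 ± 0.13. Of 9 mitochondrial translation factors 8 had negative changes and 0 were called, with the elongation factor TUFM at −0.45 ± 0.21.

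Of the lists of markers of other cell types, 3 had lower summed signals on the CN arrays at T0 than on each array of the other genotypes, and 3 overlapped. The summed signal of 7 endothelial markers, of 9 listed, was 2321.2 and 2480.6 on the CN arrays at T0, against 2685.6 to 3043.3 in the other genotypes. That of 10 fibroblast and matrix markers, of 11 listed, was 45987.8 and 50355.4 against 59498.6 to 70699.8, and that of 5 red cell markers, of 9 listed, 333.5 and 348.3 against 394.6 to 633.2. In these lists 6 of 7, 9 of 10 and 5 of 5 genes had negative changes, and 0 were called, against 0.172% of all probe sets. The number of positive changes over all tested probe sets is given above. The lists that overlapped were immune, with 468.9 and 331.1 in CN against 261.1 to 410.6, nerve and Schwann, with 359.7 and 371.7 against 234.9 to 437.1, and adipocyte, with 1012 and 886.8 against 797.6 to 1698.6. All 9 slow-fibre genes had negative changes too, with summed signals of 93114.8 and 105106 against 110343 to 132928. Skeletal muscle markers summed to 183443 and 214509 on the CN arrays against 202306 to 242123, so CN replicate 1 was lowest and the groups overlapped. The array medians of the CN arrays, 48.1 and 47.4, lay under the 50.1 to 52.9 of the other T0 arrays. RNA quality, taken as the log2 difference between the GAPDH probe sets of either transcript end, was 0.230 and 0.225 in CN, inside the 0.131 to 0.307 of the others. The same measure from actin probe sets was 0.00873 and 0.223 in CN against −0.0700 to 0.196, so CN replicate 2 lay above the other genotypes. The part of cell make-up, of RNA quality and of the array medians in the EIF4E3 result was not tested.

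At T12, when the trait is visible in LD, 0 of the 49 factors were called between CN and the other genotypes, while 0.179% of all probe sets were, 0.0383% higher and 0.141% lower. At an unadjusted p under 0.05 there was 1, against 9.98% of all probe sets. That gene, EIF4G1, had 834.1 and 915.9 in CN against 609.6 to 730.4 in the others, without overlap, and a change of 0.36 ± 0.16 (limma adjusted p = 0.484). EIF3I had 2875.9 and 3307.7 against 2281.7 to 2547.2, a change of 0.36 ± 0.16 (adjusted p = 0.503). EIF3A, the largest EIF3 scaffold, was at 0.34 ± 0.17 (adjusted p = 0.545), with 2028.5 and 2703.7 against 1573.3 to 2228.5. The mean of its probe sets, of which the other is dim, gave −0.80 instead. The median over the 49 factors was 0.02, against −0.06 over all probe sets.

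Between T0 and T12, 3 elongation factors, 2 helicases, the cap-binding EIF4E2, EIF3D and EIF6 fell in LD over CC, NC and NN, while EIF4G3 and EIF1B rose. Of the 49 factors 10 were called, 2 higher and 8 lower at T12, where 11.7% of all probe sets were called, 5.9% higher and 5.79% lower. At an unadjusted p under 0.05 there were 17, against 26.3% of all probe sets. The median change of the 49 was −0.08, against 0.06 over all tested probe sets. Each of the 10 had the same direction in all 3 genotypes, which is no separate test, since these genotypes gave the calls. In CN, whose arrays were not used in this comparison, 9 of the 10 had it. That is near the share over the array, where 90.8% of the 1830 called probe sets had the same direction in CN.

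Of the elongation factors, EEF1D, EEF1B2 and EEF2 fell. EEF1D had a lowest, median and highest signal of 1768.4, 1975 and 2650.4 on the 6 arrays at T12, against 2697.6, 3559 and 3925.1 at T0. The ages did not overlap, and the change was −0.70 ± 0.13 (limma adjusted p = 0.00657). Its step was −0.12 in CN, −0.36 in CC, −0.72 in NC and −1.01 in NN, and in CN the T12 arrays had 2011.5 and 1885.6 against 1950 and 2308.2 at T0.

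EEF1B2, a catalytic exchange subunit, had 10428.6, 10898 and 12408 at T12, against 13693, 14962 and 16753.8 at T0. Its change of −0.45 ± 0.09 (limma adjusted p = 0.00834) had steps of −0.46 in CC, −0.41 in NC and −0.47 in NN, and of −0.55 in CN. EEF2, the translocase, had 3411.7, 3803 and 4742.6 at T12 against 4887.6, 5233 and 5898.9 at T0, a change of −0.42 ± 0.09 (adjusted p = 0.0126). Replicate 1 lay below replicate 2 at T12 in every genotype, at 3411.7 and 4742.6 in NC, 3460.2 and 4679.5 in NN, and 3457.7 and 4145.5 in CC. In CN it was 3309.3 and 4174.3. The call ended without replicate 1 of LD NC T12 or LD NN T12 (adjusted p = 0.059 and 0.0715).

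Not called among the elongation factors were EEF1G at −0.28 ± 0.08 (limma adjusted p = 0.0541), although its ages did not overlap, with 16875.2 to 20457.1 at T12 against 20999.9 to 23904.3 at T0. EEF1A1, the widely expressed form of EEF1A, was at −0.17 ± 0.09 (adjusted p = 0.253). EEF1A2, which in rodents replaces EEF1A1 in muscle after birth, was at 0.28 ± 0.23 (adjusted p = 0.474), with a signal of 111.9 at T12 against 92.1 at T0. Its only probe set is dim beside that of EEF1A1, at 23104 at T12. How well this bovine probe set reads the sheep transcript was not tested, so a switch between the forms cannot be judged here. EEF1E1, an accessory protein of the tRNA synthetase complex, was at −0.55 ± 0.18 (adjusted p = 0.0677). EEF2K, the kinase that silences EEF2, was at 0.34 ± 0.17.

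Within the EIF4 group 3 genes fell and 1 rose. EIF4A3, the helicase of the exon junction complex, had 699.7, 910.7 and 1216.6 at T12 against 1206.3, 1424 and 1642 at T0, a change of −0.64 ± 0.11 (limma adjusted p = 0.00488). EIF4A1, the main helicase of cap-dependent initiation, had 219.3, 295.2 and 450.5 at T12 against 374.9, 532.9 and 573.6 at T0, a change of −0.75 ± 0.19 (adjusted p = 0.025). Both overlapped between ages. EIF4A2, the helicase paralog of EIF4A1 that is abundant in muscle and brain, was at 0.28 ± 0.08 and was not called (adjusted p = 0.0522). Its ages did not overlap, with 16356.6 to 17925.5 at T12 against 13300.2 to 15069.2 at T0.

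EIF4E2, a cap-binding protein that represses translation of the mRNAs it is guided to, had 211.8, 314.1 and 352 at T12 against 402.9, 487.4 and 548.7 at T0. Its change was −0.69 ± 0.18 (limma adjusted p = 0.0284). EIF4G3 rose by 0.44 ± 0.12 (adjusted p = 0.0365), with 722.7, 932.8 and 1061.1 at T12 against 598.6, 663 and 743.8 at T0. In CN its step was −0.13, with 993 and 986.8 at T12 against 1120.4 and 1046.4 at T0. EIF4E, EIF4EBP1 and EIF4G1 were at −0.03, −0.31 and −0.19, none called.

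Other probe sets of these genes did not always follow. The second EIF4G3 probe set gave 0.43 ± 0.14 (limma adjusted p = 0.0671). The second of EIF4A3 gave 0.11 and that of EIF4E2 0.32, opposite to the called ones, and neither was called. With the mean of all probe sets of a gene, EIF4A3 was at −0.27 (adjusted p = 0.19) and EIF4E2 at −0.18 (adjusted p = 0.562), and both calls ended.

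Among the other initiation factors EIF3D, the EIF3 subunit that can itself bind the cap, had 1076.2, 1509 and 1904.3 at T12 against 2014.8, 2256 and 3153.3 at T0. It fell by 0.68 with an SE of 0.16 (limma adjusted p = 0.02), and the other 11 EIF3 subunits were not called, at −0.39 to 0.23. EIF6, which keeps the large ribosomal subunit from joining too early, had 743.6, 876.1 and 1058.2 at T12 against 1102.7, 1196 and 1431 at T0. Its change was −0.48 ± 0.13 (adjusted p = 0.0353), and −0.81 in CN. EIF1B had 615, 706 and 748.8 at T12 against 461, 525.6 and 570.9 at T0, a rise of 0.40 ± 0.11 (adjusted p = 0.0422). EIF2 kinases and EIF2B subunits gave 0 calls of 7.

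**Figure D3:**
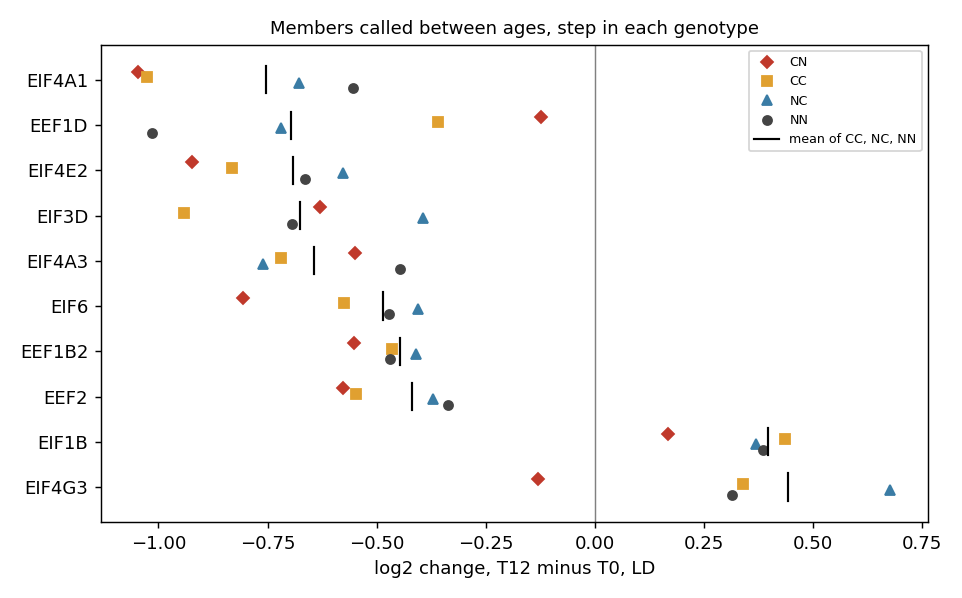
Log2 change from T0 to T12 in LD for the 10 translation factors called between ages, in CN (diamonds), CC (squares), NC (triangles) and NN (circles), with a bar at the mean of CC, NC and NN. EIF4G3 in CN, at −0.13, is the one step on the other side of 0 from its mean.

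Leaving out any 1 of the 24 arrays kept the calls of EEF1D and EEF1B2. The number of called factors was 6 without replicate 2 of LD NC T12 or of LD NN T12, and it was 0 of 49 without an intensity trend, where the 10 genes had adjusted p of 0.0724 to 0.151. EIF1B and EIF4G3 passed in 17 and 18 of the 24 fits, and the other 8 in 21 or more.

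The regulators moved in both directions between ages, with 8 of 39 called, 5 higher and 3 lower. Of all tested probe sets 11.7% were called, 5.9% higher and 5.79% lower. DDIT4 rose by 1.53 ± 0.14 (limma adjusted p = 2.07e-04), with mean signals of 12825 at T12 and 4455 at T0. ATF4, the transcription factor of the integrated stress response, rose by 0.71 ± 0.12, and PPP1R15A, which restores EIF2 by removing its phosphate, by 0.95 ± 0.18. PAIP1, a partner of the poly(A)-binding protein, rose by 0.68 ± 0.12 and the mTORC1 activator RHEB by 0.36 ± 0.09. RPS6, a ribosomal protein phosphorylated downstream of mTORC1, was at −0.68 ± 0.08 (adjusted p = 9.59e-04), the release factor GSPT1 at −0.59 ± 0.15 and PABPC4 at −0.38 ± 0.09. Of the mitochondrial factors TUFM fell by 0.71 (SE 0.15, adjusted p = 0.0103), and 8 of 9 had negative changes.

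Markers of other cells moved between the ages as well. Fibroblast and matrix markers summed to 39548.2 to 54252.8 at T12 against 59498.6 to 70699.8 at T0, with 3 of 10 called lower. Red cell markers summed to 176.9 to 295.4 against 394.6 to 633.2, with 2 of 5 called lower. At T12 some of these 5 may lie under the array medians and not be above background. Skeletal muscle markers summed to 238694 to 294856 against 202306 to 242123, with overlap, and 3 of 11 were called higher. Over all tested probe sets 5.79% were called lower and 5.9% higher. The adipocyte, endothelial, immune, and nerve and Schwann lists overlapped between the ages. Array medians of CC, NC and NN were 53.6 to 58 at T12 against 50.1 to 52.9 at T0, without overlap. The GAPDH measure of RNA quality was 0.0433 to 0.246 at T12 against 0.131 to 0.307 at T0. It overlapped over the genotypes, and within CC it was 0.0663 and 0.0433 at T12 against 0.131 and 0.216 at T0, within NC 0.246 and 0.195 against 0.290 and 0.302, and within NN 0.187 and 0.246 against 0.246 and 0.307. The actin measure was 0.0314 to 0.294 at T12 against −0.0700 to 0.196 at T0 over CC, NC and NN, with overlap. The part of these measures in the changes of the translation factors was not tested.

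In SS at T12, no translation factor was called between CN and NN. Of the 49, 0 were called and 0 had an unadjusted p under 0.05 in limma, against 0% and 4.19% of all probe sets. EIF2S3, the EIF2 subunit that binds the initiator tRNA, had the smallest p, with 1499.2 and 1441.3 in CN against 2068.4 and 1859.7 in NN, a change of −0.42 ± 0.22 (limma adjusted p = 1). EIF4A3 had 723.6 and 1282.1 in CN against 1074 and 1427.7 in NN, and EIF1B 885.3 and 606.6 against 646 and 547.3. The groups of both overlapped, with changes of −0.36 ± 0.20 and 0.30 ± 0.19. EIF4E3 was at −0.09 and 0.32 on its probe sets. The smallest p of a difference between the CN effects in SS and in LD at T12 belonged to EIF3B, an EIF3 core subunit, at 0.75 ± 0.33 (limma adjusted p = 0.988). Its signals were 266 and 298.6 in SS of CN and 226.2 and 202.7 in SS of NN, and 224.4 and 210.5 in LD of CN and 250.9 to 314.2 in LD of the other genotypes. The mean of its probe sets gave −0.98 instead. Of the 49 factors 0 were called for it and 1 had an unadjusted p under 0.05, against 0% and 4.96% of all probe sets.

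Between muscles EIF4G1 was the one translation factor called, and it was higher in the shoulder muscle. Its SS arrays had 1428.4 and 1370.3 in NN lambs, while SM had 729.3 and 700.9 and ST 895.1 and 794.2. SS of CN lambs had 1266.4 and 1291.4, and the LD arrays of the 4 genotypes at T12 lay between 609.6 and 915.9. The arrays of SS, of both genotypes, therefore did not overlap with those of any other muscle.

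EIF4G1 was the 1 factor of 49 called by an F test over the 4 muscles, SS, SM and ST of NN and LD of CC, NC and NN (limma adjusted p = 0.0356, 1.28% of all probe sets called). It was also the 1 called between SS and the mean of SM and ST, higher in SS by 0.85 ± 0.17 (limma adjusted p = 0.044, 0.997% of all probe sets called, 0.46% higher). That SE comes from the spread among LD groups, since SS, SM and ST of NN are 1 group each. Against LD of the same genotype, SS exceeded it by 1.02 in NN and by 0.55 in CN. The call over 4 muscles held in 16 of the 24 fits without an array and that against SM and ST in 14. Both calls ended without an intensity trend (adjusted p = 0.255 and 0.26), without either array of LD CC T0 or LD NN T12, and without replicate 1 of LD NC T0, LD NN T0 or LD CC T12 or replicate 2 of LD NC T12 (adjusted p = 0.0866 and 0.101). The call against SM and ST also ended without replicate 2 of LD CC T12 or of ST NN T12.

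EEF2 had 5463.2 and 4819.7 in SS of NN, against 4587.9 and 2680.6 in SM and 3643.9 and 3275.2 in ST. Its change of 0.56 ± 0.13 was not called (limma adjusted p = 0.0997), and it passed with quantile normalization (0.64, adjusted p = 0.045). EIF4A1 had 599.5 and 458.5 in SS of NN, against 291.7 and 293.2 in SM and 245.3 and 296.6 in ST, a change of 0.90 ± 0.28 (adjusted p = 0.218). In SS of CN it had 614.9 and 538, against 162.2 and 268.3 in LD of CN. EIF4E3 was at −0.01 and −0.49 in this comparison, neither called. The median of the 49 factors was 0.02, against 0.03 over all tested probe sets.

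**Figure D4:**
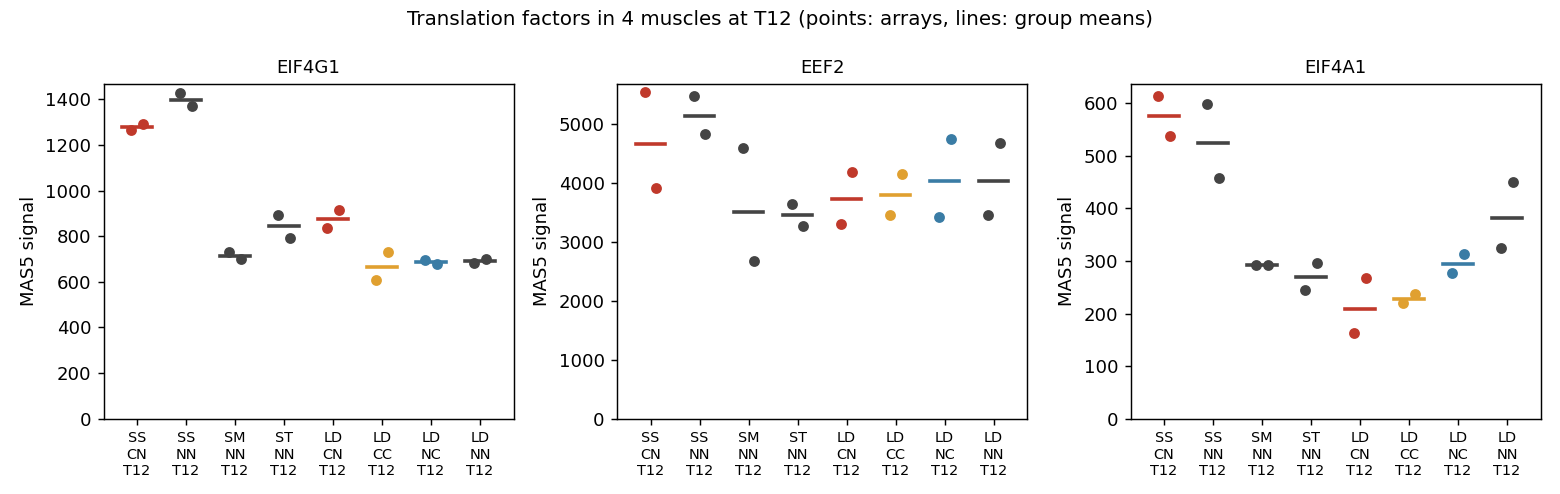
MAS5 signal (linear axes from 0) of EIF4G1, EEF2 and EIF4A1 at T12 in SS, SM, ST and LD, with 1 point per array and a line at the group mean of log2 signal. The EIF4G1 arrays of SS, at 1266.4 to 1428.4, lie above all others, while the 2 EEF2 arrays of a group are often far apart.

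Slow-fibre and adipocyte lists had higher summed signals in SS of NN than in SM and ST. All 9 measured slow-fibre genes had positive changes in SS, with a median of 0.34 and summed signals of 190964 and 200052 against 124467 to 181244, and 0 were called. The 6 adipocyte markers summed to 3112 and 3158.9 in SS against 1305.3 to 1485, with 1 called, the lipase LPL, where 0.997% of all probe sets were called. Summed signals were lower in SS, without overlap, for endothelial markers, with 2385.8 and 2446.3 against 2452.7 to 3719.8, and for immune markers, with 427.4 and 375.8 against 443.4 to 676.8. Red cell markers were lower too, with 115.5 and 147.1 against 192.1 to 350. These are sums of 5 markers, of which some in SS lie under 47.4 and may not be above background. Fibroblast and matrix markers and nerve and Schwann markers overlapped. The GAPDH measure of RNA quality was 0.0244 and 0.0583 in SS against 0.113 to 0.222 in SM and ST, without overlap. The actin measure did overlap, with 0.127 and 0.0881 in SS against 2.28e-04 to 0.190. The part of these measures in the EIF4G1 result was not tested. Of the mitochondrial factors TSFM was called lower in SS (limma adjusted p = 0.0376), on a signal of 35.5 against 116. The SS signal lies under the lowest array median of 47.4 and may not be above background, so the size of the difference is not given.

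In CC and NC lambs, which carry the mutation without showing the trait, no translation factor was called against NN in LD over both ages. In NC against NN 0 of 49 were called in limma and 1 had an unadjusted p under 0.05, against 0.0128% and 4.28% of all probe sets. In CC against NN 0 were called and 7 had an unadjusted p under 0.05, against 0.0128% and 5.49%. Both comparisons share the NN arrays. EIF3D was at 0.30 ± 0.15 in NC and 0.44 ± 0.15 in CC, EIF2S1 at 0.24 and 0.30, and EIF3J at 0.29 and 0.50. EIF4A1 went the other way, at −0.31 and −0.51, and EIF4E2 was at 0.05 and −0.40. Dimmer probe sets outside the 49 were at −0.23 and −0.78 for EIF5 and at −1.61 and −1.11 for EIF2AK1, none called. EIF3D had 2167.5 and 2344.6 at T0 and 1904.3 and 1547.8 at T12 in NC, and 3153.3 and 2860.6 at T0 and 1724.7 and 1416.9 at T12 in CC. In NN it had 2051.8 and 2014.8 at T0 and 1469.3 and 1076.2 at T12. EEF2KMT, at 2.11 and 2.88, is the 1 factor counted in NC and is among the 7 in CC. It had a signal of 5.66 in NN, far under the array medians. It reached the filter only in LD CC T12, which is among the groups compared, and in SM NN T12, so its place in these counts is no separate evidence. EIF4E3 was at −0.40 and 0.13 on its probe sets in NC and at 0.04 and −0.22 in CC, none called.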

How the data were processed

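Signals of 24 arrays were deposited by the authors as MAS5 intensity, on a linear scale, with the 2% trimmed mean of each array at 199.918 to 199.929. No source used here names the MAS5 version. Values below 1 (4295 of 579072) were set to 1 before log2. The 2 arrays of a group were averaged, and replicate numbers mark technical arrays, not pairs. Probe sets other than 112 controls were tested if their highest group mean exceeded the median of all group means (log2 5.64), which left 15654. A first run took the median over arrays instead, and the filter was changed after its results were seen, to follow an earlier treatment of these data. Comparisons used limma 3.58.1 in R 4.3.3 (lmFit, then eBayes with the prior variance following mean intensity; two-sided tests), in a model of 8 means (each muscle and age, CN apart from the other genotypes) over 12 groups, with 4 residual degrees of freedom. For CC and NC against NN the model had genotype and age as terms, 8 LD groups and 3 residual degrees of freedom. Gene names come from the platform annotation, where 13318 probe sets have 1 symbol, 86 several and 10724 none. The fits were tested on simulated data. Any factor could be named within its complex, and array values were due for EIF4E3, for called factors and for the 3 of smallest p in a comparison. Array values of other factors, and the regulators named, were chosen after their values were seen. The members and lists were chosen with earlier results of these data known. The number of arrays limits the precision.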

Additional observations from a re-analysis of the deposited data

How the results depend on the processing

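The number of translation factors called was 1 in newborn CN, 10 between ages, 0 for the change of the CN effect with age, and 1 in each of the muscle comparisons. Without an intensity trend it was 0 for newborn CN, ages, the 4 muscles, and SS against SM and ST. Unaveraged arrays with a replicate block gave 4, 16, 1, 2 and 2, counting the technical arrays as separate samples, and the numbers do not pair animals. With CC left out it was 3 in newborn CN, and with quantile normalization 2 for SS against SM and ST. Leaving out 1 array gave 0 to 3 in newborn CN, 6 to 12 between ages, 0 to 1 for the change with age, 0 to 2 over 4 muscles and 0 to 2 for SS against SM and ST. The cause of these moves was not tested. No filter, a mean log2 signal above 8 and log2(value + 16) kept these counts within 1.5 times. So did a filter at the median over arrays, an alternative chosen after seeing the data, which tested 15153 probe sets and gave 12 calls between ages and adjusted p of 0.0389 and 0.0474 for EIF4E3 in newborn CN.

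Some uncalled changes turned sign. With CC left out, EIF4E3 was at −0.013 in CN at T12, and its dimmer probe set at 0.26 between the CN effects in SS and LD. With the mean of all probe sets, EIF3A was at −0.80 in CN at T12, EIF4E3 at 0.12 in SS and −0.091 in CC, and EIF3B, which has 0.75 on its brightest probe set, at −0.98 between the effects in SS and LD. Without 1 array, EIF4E3 was between −0.29 and 0.36 in CN at T12, −0.32 and 0.14 in SS, −0.45 and 0.20 between SS and LD, −0.20 and 0.18 for SS against SM and ST, and −0.17 and 0.25 in CC. Its dimmer probe set was between −0.030 and 0.67 in SS and −0.36 and 0.34 between SS and LD, and EIF4A3 between −0.78 and 0.050 in SS.

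Over the whole array, newborn CN had 27 calls, and 7 with quantile normalization, 560 with the replicate block, 271 with CC left out and 0 without the trend. Between ages 1830 became 225 without the trend and 2848 with the replicate block, and CN at T12 had 28 calls and 1 to 421 without 1 array.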
